A study of Mus musculus with 17 samples.

Results

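The plasma cell genes examined in perigonadal white adipose tissue (pWAT) were *Sdc1*, *Prdm1*, *Xbp1*, *Irf4*, *Mzb1*, *Derl3*, *Tnfrsf17*, *Pou2af1*, *Eaf2* and *Fkbp11*. These 10 genes were taken by name from 55401 measured gene identifiers, and all 10 passed the filter on low values in each fit. A plasma cell is a B cell that has stopped dividing and secretes antibody. IRF4 and the repressor BLIMP1, encoded by *Prdm1*, switch a B cell to this state, and XBP1, which is made active by unconventional splicing of its mRNA when the endoplasmic reticulum (ER) is loaded, enlarges the secretory machinery. Fat tissue around the gonads holds small lymphoid clusters in which B cells and antibody-secreting cells reside. By textbook expression the genes were split into those largely restricted to plasma cells and B lineage cells (*Tnfrsf17*, *Mzb1*, *Derl3*, *Pou2af1*), those shared with other leukocytes (*Irf4*, *Eaf2*) and those expressed in many cell types (*Xbp1*, *Sdc1*, *Prdm1*, *Fkbp11*).

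RNA from whole pWAT of 17 C57BL/6J mice on normal chow was sequenced, with 1 library per mouse. They were 5 wild-type (WT) females, 5 knockout (U9-KO) females, 3 WT males and 4 U9-KO males, aged 16 weeks by the study's methods. U9-KO mice lack all exons of *U90926* in every cell, and both genotypes were littermates of heterozygous crosses. The comparison of genotypes within each sex asked whether loss of *U90926* altered gene expression in fat. The values are normalized counts, which are reads per gene divided by a size factor of the library. *U90926* itself had at most 1 normalized count in WT and 0 in all U9-KO mice, so it did not check the genotype labels.

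3 of the restricted genes have, in the 250 bases before a RefSeq transcription start, a sequence that factors of this programme are known to bind. The 200 bases before the start are given for these genes (GRCm38.p6, 5′ to 3′ on the gene's strand), with the matched letters in capitals. In *Derl3* (chr10:75893198-75893397, plus strand) the capitals mark the ER stress response element. In *Pou2af1* (chr9:51213490-51213689, plus strand) they mark the XBP1 site, and in *Tnfrsf17* (chr16:11313609-11313808, plus strand) the interferon regulatory factor (IRF) site.
Derl3: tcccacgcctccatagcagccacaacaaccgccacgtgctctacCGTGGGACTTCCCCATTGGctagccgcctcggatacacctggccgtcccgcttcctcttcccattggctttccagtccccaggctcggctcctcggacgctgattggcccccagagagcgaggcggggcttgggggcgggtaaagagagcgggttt
Pou2af1: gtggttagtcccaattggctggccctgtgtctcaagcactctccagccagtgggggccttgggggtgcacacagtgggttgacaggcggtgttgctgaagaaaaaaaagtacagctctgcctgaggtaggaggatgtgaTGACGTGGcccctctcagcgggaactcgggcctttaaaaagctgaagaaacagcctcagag
Tnfrsf17: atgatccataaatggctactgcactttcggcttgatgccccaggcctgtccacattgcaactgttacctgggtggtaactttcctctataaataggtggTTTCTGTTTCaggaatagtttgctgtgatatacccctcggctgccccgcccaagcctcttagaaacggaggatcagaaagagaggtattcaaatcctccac

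Both strands of 32851 RefSeq windows were searched for 4 motifs, and 12 of these windows belonged to 9 of the plasma cell genes, with none for *Mzb1*. The ER stress response element, CCAAT and CCACG with 9 bases between them, was in 0.113% of all windows and, among the plasma cell genes, in *Derl3*, on the minus strand at bases -156 to -138 from the start. The XBP1 site TGACGTGG was in 0.563% of windows and in *Pou2af1*, on the plus strand at -61 to -54. The IRF site, GAAA repeated after 2 bases, was in 2.98% of windows and in *Tnfrsf17*, on the minus strand at -101 to -92. The octamer ATGCAAAT, read by the factors that the *Pou2af1* product partners, was in 1.60% of windows and in 0 of the 12. The 3 matches lie in different windows and do not overlap. A match is a description of letters and was not tested for binding.

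Adipocyte markers were abundant in every library (6 genes summing to 237716 to 703683 normalized counts), and *Jchain*, the antibody joining chain made by antibody-secreting cells, was detected in all 17 mice (113 to 3471 normalized counts). Normalized counts summed to 20243688 to 28620744 in females and in males 22024872 to 23916425. Size factors, estimated roughly from the spacing of low values, were 0.757 to 1.23, so a gene at 10 normalized counts rests on about as many reads. That estimate was poorer in some libraries, among them WT male 3, U9-KO female 3 and U9-KO male 4, and the lowest factor is that of U9-KO female 3. Size factors look to have been chosen within each sex, with library medians of 1.03 to 1.06 in females and 0.948 to 0.963 in males relative to all mice, and levels were therefore not tested between the sexes. Female libraries also held RNA of the reproductive tract. The summed level of 10 ovary markers was 5101 to 133063 in U9-KO females, 4525 to 124115 in WT females and 211 to 437 in the males, and all 10 were above 0 in at least 1 mouse. The 2 females highest in *Cyp11a1*, the first enzyme of steroid synthesis, were WT female 4 (54629) and U9-KO female 1 (71595), and the other 8 had 597 to 14293. The 2 females highest in *Ovgp1*, a secreted oviduct protein, were WT female 3 (7684) and U9-KO female 4 (1256), and the other 8 had 22 to 212.

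*Tnfrsf17* encodes BCMA, the receptor through which plasma cells receive survival signals (ENSMUSG00000022496, GRCm38 chromosome 16, 11313812 to 11320074, plus strand). WT females 1 to 5 had 6, 4, 4, 0 and 4 normalized counts, and U9-KO females 1 to 5 had 9, 14, 15, 6 and 10. The groups met at 6, the highest WT and the lowest U9-KO value. In males, WT mice 1 to 3 had 13, 24 and 10 and U9-KO mice 1 to 4 had 13, 9, 9 and 6, so the groups overlapped. In bulk tissue, fewer cells of a type and less RNA per cell cannot be told apart, for this gene and for all that follow.

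*Mzb1* encodes an ER protein that assists antibody assembly (ENSMUSG00000024353, chromosome 18, 35647267 to 35649367, minus strand). Its counts were 9, 17, 2, 5 and 8 in WT females, whereas U9-KO females had 108, 19, 26, 11 and 10, with U9-KO female 1 far above the rest. WT males had 19, 12 and 11, and U9-KO males 2, 2, 1 and 22. Of the 4 U9-KO males, 3 thus lay below every WT male and U9-KO male 4 above them. The gene overlaps *SPATA24* on the same strand in the annotation, where reads common to both cannot be assigned, so its level is uncertain.

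*Derl3* encodes a component of the machinery that exports misfolded proteins from the ER (ENSMUSG00000009092, chromosome 10, 75893413 to 75895941, plus strand). WT females had 14, 45, 88, 219 and 64 normalized counts, and U9-KO females had 322, 53, 92, 55 and 77. WT males had 30, 28 and 22, and U9-KO males 8, 31, 22 and 42. The 2 highest values belonged to U9-KO female 1 and WT female 4, the 2 females highest in *Cyp11a1*, and the genotypes overlapped in both sexes.

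*Pou2af1* encodes the B cell coactivator OBF-1, present in B cells as well as plasma cells (ENSMUSG00000032053, chromosome 9, 51213708 to 51240080, plus strand). It had 109, 147, 73, 66 and 76 in WT females, whereas U9-KO females had 317, 140, 83, 49 and 130. WT males had 97, 128 and 57 and U9-KO males 36, 32, 38 and 53. Every U9-KO male lay below every WT male, with 4 counts between the nearest mice, while the female groups overlapped. It shares part of its strand with the annotated gene *Gm47828*, which makes its level uncertain in the same way as that of *Mzb1*.

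*Irf4*, the transcription factor that sets the plasma cell fate and also acts in T cells, macrophages and adipocytes, lies on chromosome 13 (ENSMUSG00000021356, 30749226 to 30766976, plus strand). It had 371, 274, 3064, 1800 and 619 normalized counts in WT females, whereas U9-KO females had 347, 319, 572, 1552 and 299. The 3 mice above 1000 were WT female 3 and U9-KO female 4, the 2 highest in *Ovgp1*, and WT female 4. WT female 3, WT female 4 and U9-KO female 4 also had 1160, 1351 and 3605 counts of the adipocyte gene *Lep*, named after its values were seen. The other females had 4641 to 17220. For the adipocyte gene *Adipoq* they had 53506, 30644 and 50319, within the 27618 to 72328 of the other females. How *Irf4* relates to these markers was not tested. WT males had 215, 358 and 263 *Irf4* counts and U9-KO males 212, 297, 184 and 182, a narrow range by comparison. *Eaf2*, an elongation factor partner that germinal centre B cells and plasma cells express (ENSMUSG00000022838, chromosome 16, 36792884 to 36875003, minus strand), had 41, 33, 51, 42 and 56 in WT females, whereas U9-KO females had 70, 37, 62, 25 and 28. Its male values were 57, 42 and 39 in WT and 51, 48, 60 and 62 in U9-KO, and the genotypes overlapped in both sexes. The annotation places *Iqcb1* on the opposite strand over part of *Eaf2*, and whether the counting used strand is not given in the sources used here.

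*Xbp1* was the most abundant of the 10 genes (ENSMUSG00000020484, chromosome 11, 5520659 to 5525893, plus strand). WT females had 5412, 5309, 4892, 4352 and 5294 normalized counts, and U9-KO females had 4870, 4877, 6522, 5555 and 4650. WT males had 5247, 3791 and 4444, and U9-KO males 4484, 5663, 5459 and 5413. All 4 groups overlapped, and gene counts do not show how much of the mRNA was in the active spliced form.

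*Sdc1* encodes syndecan-1, the surface proteoglycan used to stain plasma cells, which epithelia also carry (ENSMUSG00000020592, chromosome 12, 8771323 to 8793715, plus strand). WT females had 459, 731, 605, 1608 and 710, and U9-KO females had 1890, 590, 905, 871 and 896. WT males had 466, 623 and 514, and U9-KO males 580, 545, 474 and 416. The 2 values above 1000 were again those of WT female 4 and U9-KO female 1.

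*Prdm1*, whose product represses the B cell programme and also acts in T cells, macrophages and epithelia (ENSMUSG00000038151, chromosome 10, 44437177 to 44528501, minus strand), had 48, 108, 72, 62 and 58 in WT females, whereas U9-KO females had 194, 107, 137, 60 and 106. In males it had 84, 111 and 76 in WT and 77, 95, 44 and 98 in U9-KO, and the genotypes overlapped in both sexes. *Fkbp11*, an ER prolyl isomerase of secretory cells (ENSMUSG00000003355, chromosome 15, 98724366 to 98728198, minus strand), had 54, 51, 113, 124 and 117 in WT females, whereas U9-KO females had 130, 79, 59, 161 and 107. WT males had 33, 38 and 42, and U9-KO males 32, 34, 23 and 27. Every female value lay above every male value, which was the case for no other of the 10 genes.

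**Figure D1:**
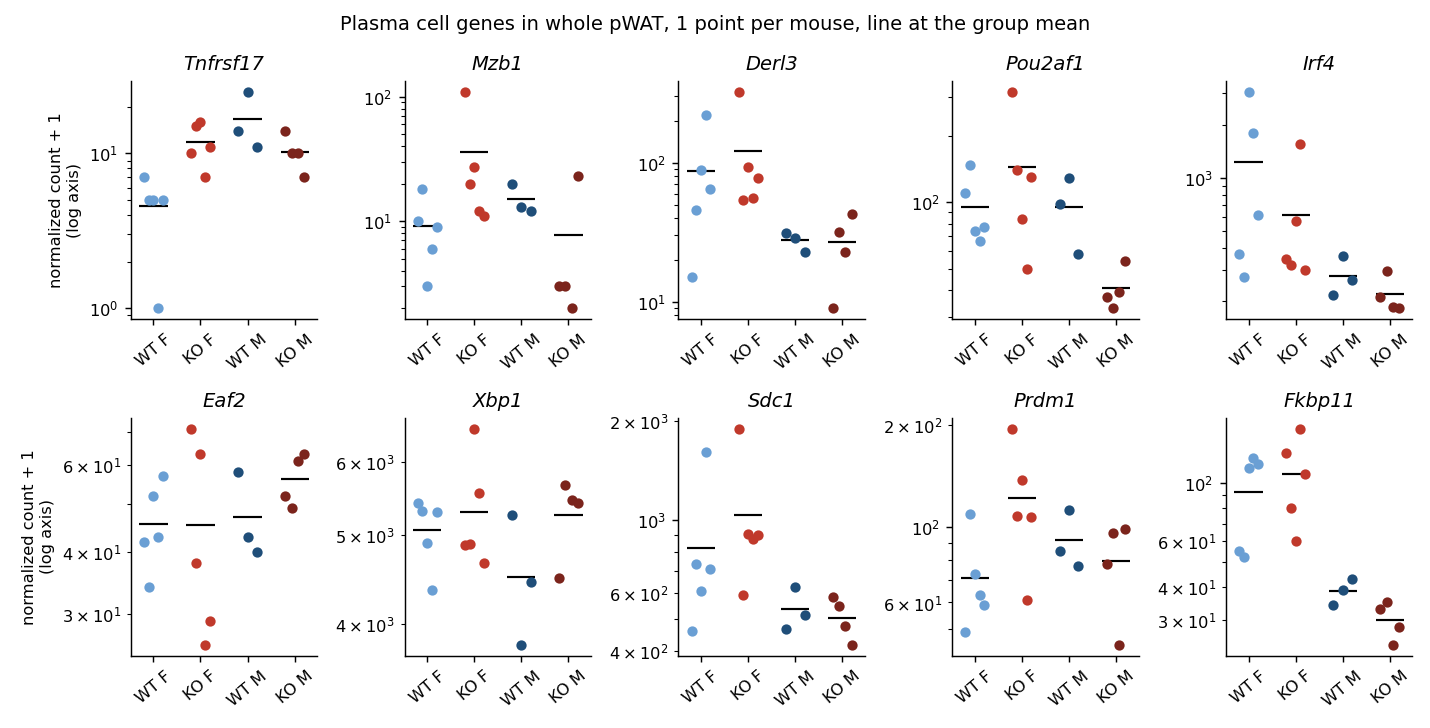
Normalized count plus 1 (log axis, own range in each panel) of the 10 plasma cell genes in WT and U9-KO (KO) females (F) and males (M), 1 point per mouse in order of replicate number, with a line at the group mean. *Derl3* and *Sdc1* share their 2 highest mice, *Irf4* exceeds 1000 in 3 females, and *Pou2af1* separates the genotypes in males.

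Per kilobase of exon, the mean level in females was highest for *Xbp1* (1593 normalized counts per kb), followed by *Sdc1* (243), *Irf4* (188), *Derl3* (51.6), *Pou2af1* (46.7), *Fkbp11* (36.8), *Mzb1* (17.7), *Prdm1* (17.1), *Eaf2* (10.2) and *Tnfrsf17* (8.83). In males the order began with *Xbp1* (1517), *Sdc1* (136) and *Irf4* (49.9) and ended with *Mzb1* (8.11), and *Tnfrsf17* stood at 14.7. The female mean over the male mean, given without a test because the sexes were scaled apart, was 3.94 for *Derl3*, 3.77 for *Irf4*, 3.04 for *Fkbp11*, 2.18 for *Mzb1*, 1.89 for *Pou2af1* and 1.79 for *Sdc1*. It was 1.14 for *Prdm1*, 1.05 for *Xbp1*, 0.868 for *Eaf2* and 0.600 for *Tnfrsf17*. By medians, which a few high mice move less, the ratio was 2.52 for *Derl3*, 2.19 for *Irf4*, 0.955 for *Mzb1* and 3.33 for *Fkbp11*.

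The spread between mice was taken first over both genotypes of a sex, so that it also holds any difference between them. In males this coefficient of variation was 40.02% to 86.8% for the 4 restricted genes (*Derl3* lowest, *Mzb1* highest) and 13.8% to 26.7% for the other 6. In females the restricted genes had 64.9% to 145% and the other 6 had 11.6% to 101%, with *Irf4* inside the range of the restricted ones. Within each of the 4 groups of 1 sex and genotype the ranges of the restricted and the other genes overlapped. In WT males *Derl3* (15.6%) varied less than *Irf4* (26.1%), and in U9-KO males *Pou2af1* (23.1%) varied less than *Prdm1* (31.6%). Counting error alone gives about 28.9% for *Tnfrsf17* and 31.9% for *Mzb1* in males, where the measured values were 48.6% and 86.8%. For *Fkbp11* in males the measured 19.5% was close to the 17.5% that counting alone gives. *Xbp1* varied least in females, by 11.6%, and *Sdc1* varied by 49.8% in females and 13.8% in males.

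**Figure D2:**
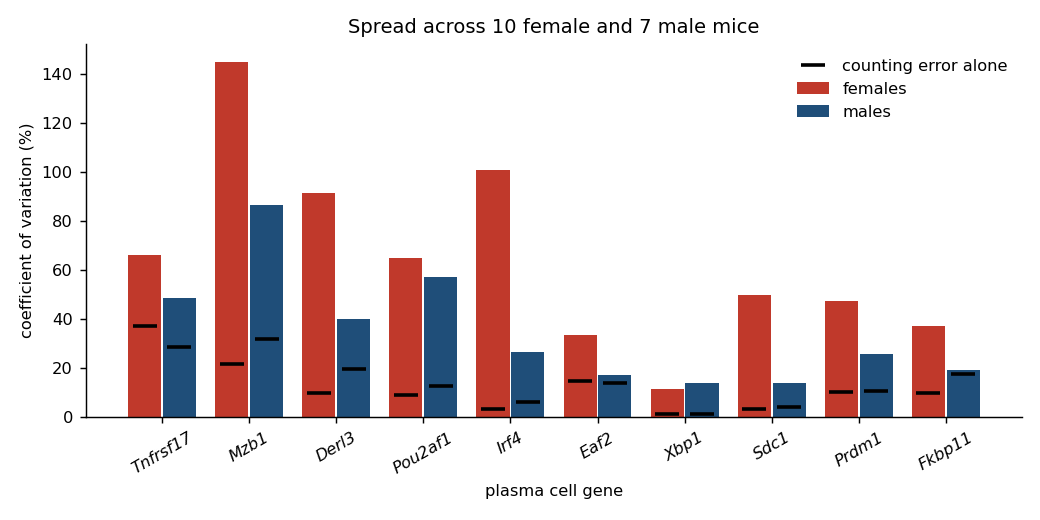
Coefficient of variation (%) of each plasma cell gene across 10 female (red) and 7 male (blue) mice, both genotypes pooled, with a black dash at the value that counting error alone would give. The 4 genes on the left are the restricted ones, which have the 4 highest male bars.

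To ask which genes follow antibody-secreting cells and which follow B cells, each was correlated across mice of one sex with *Jchain* and with *Ms4a1*, the CD20 gene that B cells express and plasma cells lose. None of the 40 relations had an adjusted p under 0.05 (permutation tests of log2 values, Benjamini-Hochberg over the 40), and 7 had an unadjusted p under 0.05. Values of n are 10 females and 7 males, or 8 females and 5 males where the 2 mice farthest from the median were left out.

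In females *Prdm1* (Pearson's r = 0.804, permutation p = 0.00474, adjusted p = 0.0948), *Tnfrsf17* (r = 0.719, permutation p = 0.0151, adjusted p = 0.151) and *Mzb1* (r = 0.701, permutation p = 0.0232, adjusted p = 0.173) had the highest coefficients with *Jchain*. Spearman's rho was 0.624, 0.800 and 0.673 for these genes, with permutation p = 0.0610, 0.00772 and 0.0388. *Jchain* had 120, 275, 341, 113 and 302 normalized counts in WT females, whereas U9-KO females had 2531, 576, 3471, 690 and 753. The genotypes did not overlap in it, which held for 0.238% of all genes tested in females. The pooled coefficients therefore also carry the genotype difference. On deviations from the genotype means they were 0.663, 0.344 and 0.440. Without the 2 mice farthest from the *Jchain* median (U9-KO females 1 and 3), r was 0.560 for *Prdm1*, 0.709 for *Tnfrsf17* and 0.323 for *Mzb1*. The lowest coefficients with *Jchain* in females were those of *Fkbp11* (r = 0.0927) and *Irf4* (r = -0.244).

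In males, where *Jchain* overlapped between the genotypes, the 4 restricted genes included the 3 highest coefficients with *Jchain*. They were 0.761 for *Pou2af1* (exact permutation p = 0.0520, adjusted p = 0.239), 0.735 for *Derl3* (exact permutation p = 0.0302, adjusted p = 0.173) and 0.651 for *Mzb1* (exact permutation p = 0.115, adjusted p = 0.383), with rho of 0.607, 0.703 and 0.667. *Tnfrsf17* had r = 0.312, below *Prdm1* at 0.554. *Xbp1* (r = -0.0213), *Fkbp11* (r = 0.0873) and *Sdc1* (r = -0.136) showed little relation in these mice.

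*Pou2af1* had the highest coefficient with *Ms4a1* in females (r = 0.684, permutation p = 0.0295, adjusted p = 0.173, rho = 0.806 with permutation p = 0.00733), and it was 0.883 without U9-KO female 3 and WT female 4. U9-KO female 3 had the most *Jchain* of all females (3471) and the least *Ms4a1* (41), and *Pou2af1* stood at 83 there, in the middle of its female range. In males *Tnfrsf17* (r = 0.918, exact permutation p = 0.00397, adjusted p = 0.0948, rho = 0.927) and *Pou2af1* (r = 0.862, exact permutation p = 0.0145, adjusted p = 0.151, rho = 0.607) had the highest coefficients with *Ms4a1*. Without the 2 mice farthest from the median, WT males 1 and 2, r was 0.739 for *Tnfrsf17* and -0.0654 for *Pou2af1*, so the latter relation rests on those mice. WT male 3 was then the only WT male left, so leaving them out also removes most of the genotype contrast. The coefficients over all 7 males also carry the genotype difference. On deviations from the genotype means r was 0.877 for *Tnfrsf17* (exact permutation p = 0.0556, adjusted p = 0.555) and 0.656 for *Pou2af1* (exact permutation p = 0.292, adjusted p = 0.648).

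2 markers of the reproductive tract were added after the values of the plasma cell genes had been seen, *Cyp11a1* and the epithelial cadherin gene *Cdh1* (57 to 611 normalized counts in females, at most 4 in males). Of these 20 relations in females, 4 had an unadjusted p under 0.05 and 2 an adjusted p under 0.05, adjusted over these 20 alone. Because the markers were chosen with these values known, the p-values here describe the pattern and are not an independent test of it. *Sdc1* (r = 0.822, permutation p = 0.00340, adjusted p = 0.0472) and *Derl3* (r = 0.802, permutation p = 0.00472, adjusted p = 0.0472) went with *Cyp11a1*. On deviations from the genotype means these were 0.901 (adjusted p = 0.0139 by permutation) and 0.867 (adjusted p = 0.0454). Spearman's rho was 0.673 (permutation p = 0.0402, adjusted p = 0.308) for *Sdc1* and 0.612 (permutation p = 0.0665, adjusted p = 0.308) for *Derl3*. Without U9-KO female 1 and WT female 1, r was 0.618 and 0.520, neither with an adjusted p under 0.05. *Derl3* and *Sdc1* also had the highest coefficient of any pair of the 10 genes, 0.904 in females.

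*Irf4* (r = 0.728, permutation p = 0.0176, adjusted p = 0.102, rho = 0.648 with permutation p = 0.0488) and *Fkbp11* (r = 0.720, permutation p = 0.0204, adjusted p = 0.102, rho = 0.697 with permutation p = 0.0303) had the highest coefficients with *Cdh1*. For *Fkbp11* it was 0.824 on deviations from the genotype means (adjusted p = 0.0454 by permutation) and 0.713 without WT females 1 and 3, and for *Irf4* 0.706 and 0.585. *Xbp1* and *Tnfrsf17* had negative coefficients with both markers. How much of the female level of *Derl3*, *Sdc1*, *Irf4* and *Fkbp11* came from tissue other than fat was not tested.

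**Figure D3:**
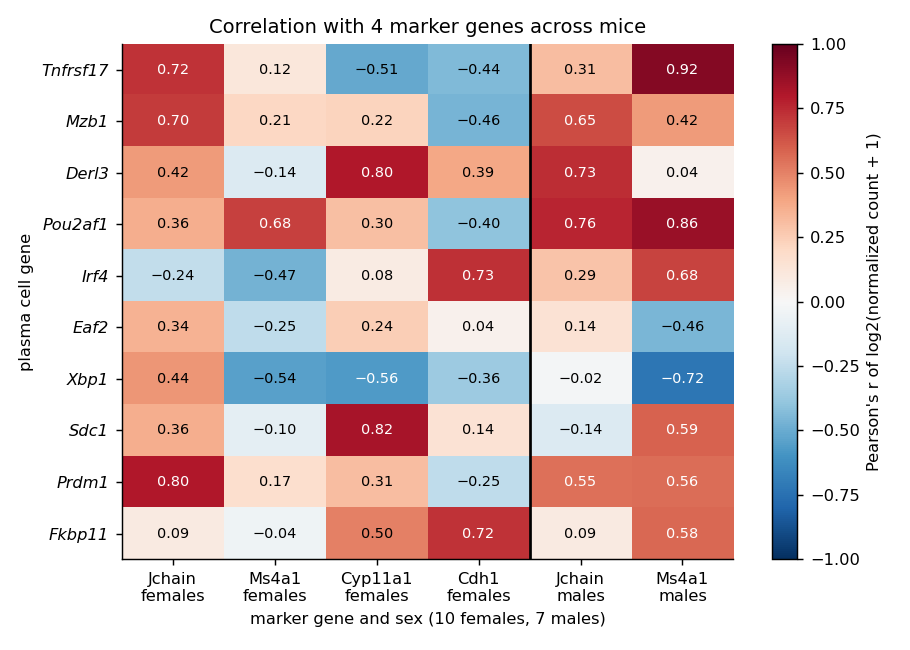
Pearson's r of log2(normalized count + 1) between each plasma cell gene (rows) and *Jchain*, *Ms4a1*, *Cyp11a1* or *Cdh1* (columns) across 10 females (left of the line) and across 7 males (right). In females the highest coefficients are split over the 4 markers, with *Prdm1* on *Jchain*, *Pou2af1* on *Ms4a1*, *Sdc1* and *Derl3* on *Cyp11a1*, and *Irf4* and *Fkbp11* on *Cdh1*.

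**Figure D4:**
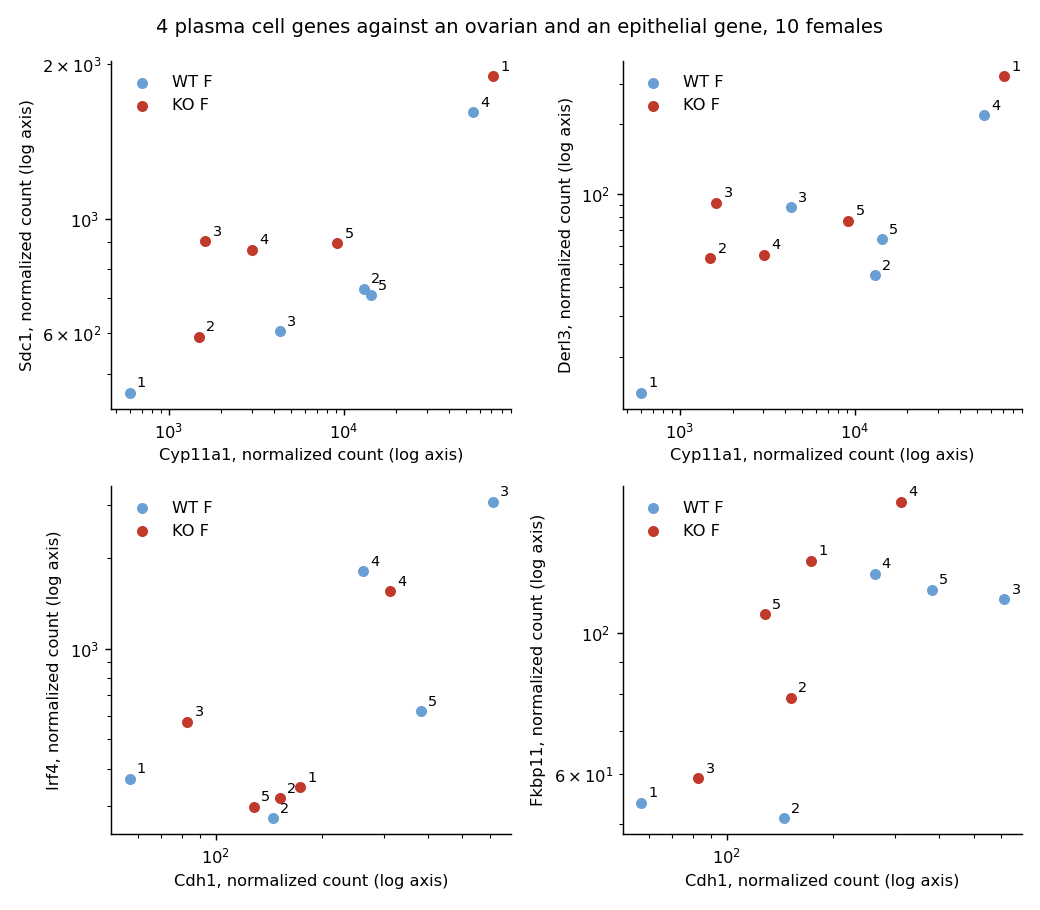
Normalized counts on log axes of *Sdc1* and *Derl3* against *Cyp11a1* (upper panels) and of *Irf4* and *Fkbp11* against *Cdh1* (lower panels) in 5 WT (blue) and 5 U9-KO (red) females, each point labelled with its replicate number. U9-KO female 1 and WT female 4 are at the upper right of both upper panels, and WT female 3 has the most *Irf4* and *Cdh1*.

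Genotypes were compared within each sex with limma on log2(normalized count + 1), with Benjamini-Hochberg adjustment over all genes tested. The study, with DESeq2 at the same adjusted threshold, reported differentially expressed genes in each sex, so the counts below hold for limma on these values. In females the adjusted p was under 0.05 for 0 of the 10 plasma cell genes and for 0 (0%) of all 24825 genes. In limma's test without adjustment 3 of the 10 had a p under 0.05, all higher in U9-KO females, against 1.24% of all genes in that direction and 2.23% in both. The fold change was above 0 for 8 of the 10, against 12407 of the 24825 genes, and the groups overlapped for all 10, against 0.238% of genes that did not overlap. The median log2 fold change was 0.38 over the 10 genes and 0 over all genes.

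The 4 genes called restricted by textbook expression were all on the higher side in U9-KO females, with a median log2 fold change of 1.07. *Derl3* among them had r = 0.802 with *Cyp11a1* and 0.423 with *Jchain* in females, so the set is not a readout of plasma cells alone there. In males its r with *Jchain* was 0.735. For *Tnfrsf17*, U9-KO females had 10.8 ± 3.70 normalized counts (SD, n = 5) and WT females 3.60 ± 2.19 (SD, n = 5). On the log2 scale the difference was 1.54 (SE 0.52, adjusted p = 1 by limma). Without WT female 4, which had 0 counts of this gene, it was 1.06. For *Mzb1* the values were 34.8 ± 41.4 (SD, n = 5) against 8.20 ± 5.63 (SD, n = 5), a log2 difference of 1.61 (SE 0.65, adjusted p = 1 by limma). Values for *Derl3* (0.60, SE 0.67) and *Pou2af1* (0.40, SE 0.42) lay within their errors. Of the widely expressed genes, *Prdm1* had 120.8 ± 49.3 (SD, n = 5) in U9-KO females against 69.6 ± 23.1 (SD, n = 5), with a log2 difference of 0.74 (SE 0.30, adjusted p = 1 by limma). The differences of *Xbp1* (0.06, 95% interval -0.18 to 0.30), *Sdc1* (0.35, SE 0.34), *Fkbp11* (0.24, SE 0.34), *Eaf2* (-0.10, SE 0.31) and *Irf4* (-0.71, SE 0.67) were about as large as their errors or smaller.

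U9-KO female 1 was the highest of the 10 females for 6 of the 10 genes (*Mzb1*, *Derl3*, *Pou2af1*, *Eaf2*, *Sdc1* and *Prdm1*). Without it 8 of the 10 genes still had a fold change above 0, but the median was 0.13 and 1 gene had an unadjusted p under 0.05, against 2.43% of all genes tested without that mouse. Without both it and WT female 4, the 2 females highest in *Cyp11a1*, the fold change was above 0 for 7 of the 10 and for 3 of the 4 restricted genes, the median was 0.33, and *Pou2af1* was at -0.06. *Tnfrsf17* was then at 1.10, *Mzb1* at 0.97 and *Prdm1* at 0.52. With log2(*Cyp11a1* + 1) as a covariate 5 of the 10 had an unadjusted p under 0.05, all higher in U9-KO females, against 1.40% of all genes in that direction and 2.60% in both, and 0 had an adjusted one.

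In males the adjusted p was likewise under 0.05 for 0 of the 10 plasma cell genes and for 0 (0%) of all 21930 genes. The fold change was below 0 for 8 of the 10, against 10935 of the 21930 genes, with a median of -0.30 against 0.000648. The gene with an unadjusted p under 0.05, 1 of the 10 and lower in U9-KO males, was *Pou2af1*, against 4.09% of all genes in that direction and 7.60% in both. It was also the 1 gene whose groups did not overlap, against 3.80% of all genes that did so with U9-KO below WT and 7.60% in either order. U9-KO males had 39.8 ± 9.18 normalized counts (SD, n = 4) and WT males 94.0 ± 35.6 (SD, n = 3). On the log2 scale the difference was -1.17 (SE 0.29, adjusted p = 0.612 by limma), and the values with 1 mouse left out were between -1.49 and -0.91.

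The 4 restricted genes all had fold changes below 0 in males, with a median of -0.91. *Mzb1* stood at -1.70 (SE 0.77, adjusted p = 0.654 by limma), from 6.75 ± 10.2 normalized counts in U9-KO males (SD, n = 4) against 14.0 ± 4.36 (SD, n = 3), and without U9-KO male 4 at -2.48. *Tnfrsf17* stood at -0.66 (SE 0.41), from 9.25 ± 2.87 in U9-KO males (SD, n = 4) against 15.7 ± 7.37 (SD, n = 3). *Derl3* was at -0.25 (SE 0.48) and turned to 0.20 without U9-KO male 1. The other 6 ranged from -0.37 (*Fkbp11*, SE 0.24) to 0.27 (*Eaf2*, SE 0.22), with *Irf4* at -0.35 (SE 0.21), *Prdm1* at -0.25 (SE 0.28), *Sdc1* at -0.09 (SE 0.14) and *Xbp1* at 0.23 (SE 0.12). Without WT male 1, 3 of the 10 had an unadjusted p under 0.05 (2 lower, 1 higher) and 0 an adjusted one, against 15.6% of all genes tested without that mouse at an unadjusted p under 0.05 and 71 of them after adjustment. WT male 2 was the highest male for 5 of the 10 genes, and without it the median was -0.18.

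**Figure D5:**
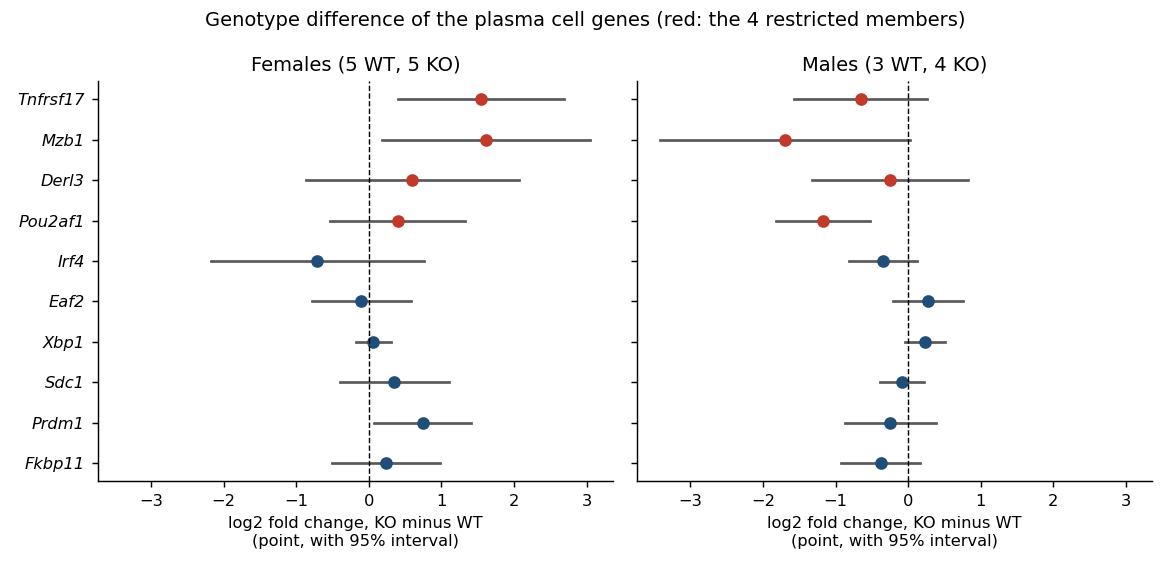
Log2 fold change (U9-KO minus WT) of each plasma cell gene with its 95% interval from limma in 5 WT and 5 U9-KO females (left) and in 3 WT and 4 U9-KO males (right), on 1 scale, with the 4 restricted genes in red. The restricted genes lie to the right of 0 in females and to the left in males, and *Xbp1* has the narrowest interval in both.

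The difference of the genotype effect between the sexes was tested as an interaction over all 17 mice. The adjusted p was under 0.05 for 0 of the 10 genes and for 0 (0%) of 26289 genes, and 4 of the 10 had an unadjusted p under 0.05, all with a lower effect in males, against 1.97% of all genes in that direction and 3.46% in both. They were *Mzb1* (male minus female log2 fold change -3.31, SE 1.08), *Tnfrsf17* (-2.20, SE 0.73), *Pou2af1* (-1.57, SE 0.60) and *Prdm1* (-0.99, SE 0.46), each with an adjusted p = 1 by limma. The estimate was below 0 for 7 of the 10, against 13209 of the 26289 genes, and the exceptions were *Irf4* (0.37), *Eaf2* (0.37) and *Xbp1* (0.17).

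The product of plasma cells, antibody, was followed by 11 constant region and joining chain genes, the most abundant being *Ighm*, *Igkc* and *Jchain*. In females all 11 had fold changes above 0, with a median log2 fold change of 2.48. The 11 were measured in the same mice and are not independent, and some rest largely on 1 mouse. Named after their values were seen, *Ighg2c* had 5449 counts in U9-KO female 1 and 0 to 120 in the other U9-KO females. *Ighg2b* had 2562 there and 22 to 747 in the others. Of the 11, 7 had an unadjusted p under 0.05, against 1.24% of all genes on the higher side, and 0 an adjusted one. *Ighm* was at 1.31 (SE 0.64), *Igkc* at 2.48 (SE 0.55) and *Jchain* at 2.54 (SE 0.53). In males 10 of the 11 were tested, 7 were below 0, and the median was -0.85, with *Ighm* at 0.11 (SE 0.27), *Igkc* at -0.89 (SE 0.56) and *Jchain* at -0.95 (SE 0.60). At an unadjusted p under 0.05 there were 2 of the 10, both lower and named after their values were seen, *Ighg2b* (-2.77, SE 0.99) and *Iglc1* (-1.32, SE 0.48), against 4.09% of all genes in that direction. The male groups of 1 of the 10, *Iglc1*, did not overlap, with U9-KO below WT, against 3.80% of all genes in that order. In females the groups of 2 of the 11, *Igkc* and *Jchain*, did not overlap, with U9-KO above WT. Of all genes 0.238% did not overlap in females, in either order.

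The ER folding, export and stress genes that plasma cells use in common with other secretory cells numbered 25, led by *Hspa5*, *Hsp90b1* and *Srp54b*. Their median log2 fold change was 0.07 in females, where 17 were above 0, and 0.05 in males, where 18 were. At an unadjusted p under 0.05 there was 1 of the 25 in females, *Dnajb9* (0.25, SE 0.11, named after its value was seen). There was also 1 in males, *Hspa5* (0.25, SE 0.09). Both were higher in U9-KO, against 1.24% of all genes in that direction in females and 3.51% in males. The male groups of 2 of the 25, *Hspa5* and *Srp54b*, did not overlap, with U9-KO above WT. Of all genes 7.60% did not overlap in either order, a share that includes the 3.80% with U9-KO below WT. *Hspa5*, the main ER chaperone, was at 0.11 (SE 0.14) in females, and *Hsp90b1* was at -0.05 (SE 0.19) in females and 0.10 (SE 0.09) in males. *Srp54b*, a subunit of the signal recognition particle, was at 0.07 (SE 0.09) in females and 0.13 (SE 0.07) in males.

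Of 10 further genes of plasma cell differentiation, led by *Creb3l2*, *Ell2* and *Txndc11*, 8 were above 0 in females (median 0.10) and 8 below 0 in males (median -0.12), with 0 at an unadjusted p under 0.05 in either sex. Of 10 genes for plasma cell survival signals and homing, led by the chemokine gene *Cxcl12*, the interleukin-6 receptor gene *Il6ra* and the adhesion gene *Vcam1*, 5 were above 0 in females (median -0.01) and 9 below 0 in males (median -0.34). In males 3 of these had an unadjusted p under 0.05, all lower in U9-KO, against 4.09% of all genes in that direction. They were *Il6ra* (-0.44, SE 0.16) and, named after their values were seen, *Itga4* (-0.52, SE 0.16) and *Tnfrsf13c* (-1.09, SE 0.41).

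Markers of the other cells in the tissue are given beside these values, and their part in the differences was not tested. Of 12 B cell identity genes, among them *Cd79a* and *Ms4a1*, 8 were above 0 in females (median 0.12, 0 at an unadjusted p under 0.05) and 12 below 0 in males (median -0.89). In males 8 of the 12 had an unadjusted p under 0.05, against 4.09% of all genes on the lower side. They summed to 614 to 1348 in WT males, 460 to 567 in U9-KO males, 532 to 2559 in U9-KO females and 778 to 2035 in WT females. In males 8 T cell genes, led by *Trac*, *Cd4* and *Lck*, and 7 myeloid genes, led by *Lyz2*, *Csf1r* and *Mrc1*, were all below 0 as well, with medians of -0.82 and -0.38. At an unadjusted p under 0.05 there were 1 of the 8 T cell genes (*Cd4*) and 3 of the 7 myeloid genes (*Csf1r*, *Lyz2* and *Itgam*), named after their values were seen. The lymph node stroma genes *Ccl21a*, *Cxcl13* and *Ccl19* included a count of 2157 for *Cxcl13* in WT male 2, against 37 to 298 in the other males. In females the medians were 0.26 for the T cell genes, -0.23 for the myeloid genes and -0.63 for the 10 ovary markers. The ovary markers were led by *Cyp11a1*, *Hsd3b1* and *Star*. Of the 8 T cell genes, 1 was higher in U9-KO females at an unadjusted p under 0.05, against 1.24% of all genes in that direction. After adjustment limma called 0 genes of any list in either sex. Medians for 6 adipocyte genes, led by *Cfd*, *Fabp4* and *Adipoq*, were 0.21 in females and 0.10 in males, and for 6 mesothelial genes, led by *Upk3b*, *Msln* and *Lrrn4*, -0.15 and -0.05. The 5 oviduct markers, led by *Ovgp1*, *Epcam* and *Cdh1*, had a median of -0.05 in females and summed to 20 to 38 in males, and 6 epididymis markers, led by *Crisp1*, *Defb20* and *Spink13*, summed to at most 3 in males.

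To show which genes the plasma cell genes resembled most, the 12859 genes whose mean reached 50 normalized counts in each sex were ranked by Pearson's r over the 17 mice, after each gene was centred on its sex and genotype group mean. These ranks are a description, since the highest of so many coefficients from 17 mice is large by selection. Genes near *Pou2af1* included *Cd22* (r = 0.843), which encodes a B cell surface receptor, and *Baz1a* (r = 0.843). *Sdc1* was closest to *Cdh2* (0.958), *H2afz* (0.956) and *Nr5a2* (0.954), the last a nuclear receptor of ovarian granulosa and luteal cells with a mean of 864 in females and 83.3 in males. *Fkbp11* was closest to *Ostc* (0.965), an ER glycosylation subunit, and to *Pck2* (0.944) and *Gm4617* (0.943), and *Irf4* to *Npc1* (0.913), *Tbc1d23* (0.910) and the ER chaperone gene *Calr* (0.905).

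The nearest genes of *Eaf2* were *Sec11c* (0.813), a signal peptidase subunit, *Tmem64* (0.812) and *Elovl5* (0.806), and those of *Xbp1* were *Cmtm6* (0.917), *Tap2* (0.896) and *Hist1h2bg* (0.886). *Prdm1* was nearest to *Thsd1* (0.816), the natural killer receptor gene *Klrk1* (0.811) and *Zbtb2* (0.793). For the low restricted genes the nearest were *Slfn2* (0.882), *Rcan1* (0.877) and *Pcdh1* (0.877) for *Tnfrsf17*, *Bcar1* (0.907), *Zbtb34* (0.836) and *Sspo* (0.830) for *Mzb1*, and *Usp37* (0.894), *Zfp41* (0.891) and *9430015G10Rik* (0.884) for *Derl3*. Genes near the mean of the 4 restricted genes included *Mark4* (0.871), *Cdc42se2* (0.862), *Baz2a* (0.862) and *Trpm2* (0.838).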

How the data were processed

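Whole pWAT RNA of 17 mice was sequenced as strand-specific paired reads, with 1 library per mouse. The authors used trim_galore for trimming, STAR 2.7.3a for alignment to GRCm38, summarizeOverlaps (Union mode) for counting reads in genes and DESeq2 1.28.1 for normalization (build and versions from the submitters' processing notes). The deposited numbers are treated as a score, namely counts divided by a size factor and rounded to whole numbers. Since rounding merges neighbouring read numbers, counts were not rebuilt and no count model was fitted. Size factors were estimated here from gaps in low values, only to give the depth. The series table repeats the single libraries and was not used. For 2 males the replicate number in the column header differs from that in the label, and the label was followed.

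GENCODE release M21 (GRCm38) named 55141 of 55401 identifiers and gave positions and exon lengths, and promoters came from RefSeq (GRCm38.p6). Genes whose values summed to 10 or more in the mice fitted were tested with limma 3.58.1 (lmFit, eBayes with trend) in R 4.3.3. The fits used log2(value + 1), where fold changes of low genes can be understated. Genes were called at a p of 0.05 after Benjamini-Hochberg adjustment over all genes. The fits were also run on simulated counts in which each gene varied independently. That run does not show how the fits behave on genes that vary together across mice. Correlations were tested two-sided in Python 3.11.15 (numpy 2.4.6, pandas 2.3.3, scipy 1.17.1) with 100000 permutations in females and exactly in males. Figures were drawn with matplotlib 3.10.9. The p-values measure the spread between single mice. Each library was counted as 1 mouse and 1 replicate, following the replicate numbers of the labels. Each of 29 pairs of libraries of one group differed in at least 24469 genes, so no library's values were repeated. That check cannot show that 2 libraries came from different mice.

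The plasma cell genes and the lists were chosen with earlier results of these data known. Named genes were the 10, *U90926*, *Jchain*, *Ms4a1*, the 3 most abundant genes of each list, and the 3 nearest genes by correlation (5 for the mean of the restricted genes), of which some are not reported here. The correlations with *Cyp11a1* and *Cdh1* were added after the data were seen. So were fits that left out the females highest in *Cyp11a1* or *Ovgp1* or used *Cyp11a1* as a covariate. Alternatives were other pseudocounts, filters, scalings and variance models, all 17 mice in 1 fit, the replicate number as a block, and leaving out each mouse.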

Additional observations from a re-analysis of the deposited data

Results flagged for a closer look

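Dixon's criterion was applied to 30 sets of normalized counts without logs (10 genes in the 3 groups of at least 4 mice). The highest or lowest mouse stood apart in 6. The criterion's rate of about 1 in 20, or 1.5, holds for normal values in independent sets. These counts are skewed and the sets share mice, so the 6 cannot be set against chance. U9-KO female 1 stood apart for *Mzb1* (108 normalized counts, next 26), *Derl3* (322, next 92) and *Sdc1* (1890, next 905), and it was also the female with the most *Cyp11a1*. WT female 4, second in *Cyp11a1*, stood apart for *Sdc1* (1608, next 731). U9-KO female 4, second in *Ovgp1*, stood apart for *Irf4* (1552, next 572). U9-KO male 4 stood apart for *Mzb1* (22, next 2). The part of the marker levels in these values was not tested.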

How the results depend on the processing

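No plasma cell gene passed the adjusted threshold of limma under any alternative run. Over all genes the count, 0 in each comparison, became 1 in females and 1 in males without the variance trend and 1 for the interaction without a filter. With 1 mouse left out it ranged from 0 to 71 in males (71 without WT male 1) and stayed at 0 in females and for the interaction. The median log2 fold change of the 10 genes then ranged from 0.13 to 0.55 in females, from -0.43 to -0.18 in males and from -0.85 to -0.40 for the interaction.

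Signs turned for *Pou2af1* in females (-0.064 without the 2 highest in *Cyp11a1*) and *Eaf2* in females (0.12 without the 2 highest in *Ovgp1*). With 1 mouse left out, ranges crossed 0 for *Eaf2* (-0.29 to 0.070) and *Xbp1* (-0.017 to 0.11) in females, for *Derl3* (-0.55 to 0.20), *Prdm1* (-0.37 to 0.0054) and *Sdc1* (-0.18 to 0.030) in males, and for *Irf4* in the interaction (-0.11 to 0.78). The cause was not tested.

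Of the correlations, 1 relation with *Ms4a1* in females and 1 in males had an adjusted p under 0.05 on linear counts, and 1 in females without the 2 farthest mice (0 to 1 with 1 mouse left out). For *Cdh1* the count was 1 on linear counts and 1 on deviations from the genotype means. For *Cyp11a1* it was 0 by Spearman's rho, 0 without the 2 farthest mice, and 0 to 2 with 1 mouse left out. No such count was made for males without the 2 farthest mice, which leaves 5.

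Replicate numbers gave no pairing, since deviations of same-numbered mice correlated at -0.305 to 0.0473 in females and at -0.0812 to -0.0103 in males. With the replicate number as a block, 0 genes were called in every comparison, 3 of the 10 in females and 2 in males had an unadjusted p under 0.05 (against 1.84% and 6.35% of all genes), the male median was -0.36, and *Sdc1* in males was at 0.0019. That male fit rests on 6 paired mice, as U9-KO male 4 has no partner. *Tnfrsf17* and *Mzb1*, mostly under 30 counts, are limited by counting depth.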
